A study of Mus musculus with 12 samples.

Results

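The comparison described here sets the pituitaries of mice given a cre virus beside those of mice given a control virus, with both groups receiving the ligand AA14. Its members were chosen by sample title: the 3 libraries cre_AA14 1 to 3 and the 3 libraries ctrl_AA14 1 to 3, which are 6 of the 12 bulk RNA-seq libraries in the series. The cre_AA14 mice are labelled Cga-creAAVGpr101fl/fl and the ctrl_AA14 mice Cga-ctrlAAVGpr101fl/fl, so every mouse of both groups carries the floxed Gpr101 allele, and all are C57BL/6. Both groups were treated with AA14 for 1 week. The other 6 libraries are the same genotypes given control vehicle for 1 week, as cre_vehicle and ctrl_vehicle, with 3 libraries each. The pituitaries had been dispersed to single cells, washed and passed through flow cytometry before RNA was taken. The labels do not say what drives cre, although the name carries Cga, the gene of the shared alpha subunit of the glycoprotein hormones, and they do not give the sex or age of the mice. Whether each library of a group is a different mouse is not labelled, and the p-values cover only the spread among the libraries, some of which may be technical.

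Gpr101 encodes an orphan receptor of the pituitary and hypothalamus that signals through the stimulatory G protein, and extra copies of the human gene cause gigantism through excess growth hormone. The stimulatory G protein activates adenylyl cyclase, cyclic AMP releases the catalytic subunits of protein kinase A, and the kinase phosphorylates CREB, which binds the cyclic AMP response element in the promoters of genes such as Fos and Nr4a1. Cre recombinase cuts out the DNA between a pair of loxP sites, here in Gpr101. The pituitary holds somatotrophs that make growth hormone, lactotrophs that make prolactin, corticotrophs and melanotrophs that process pro-opiomelanocortin, gonadotrophs and thyrotrophs, beside stem cells, vessels and the glia of the posterior lobe. The comparison asks how pituitary expression differs with the cre virus while the ligand is given.

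Total counts were between 69362518 and 72556584 in the ctrl_AA14 libraries and between 55089260 and 66740566 in the cre_AA14 libraries, and 22630 genes had enough counts to be tested. Levels below are CPM, a gene's counts as a share of its library scaled to the same total, on library sizes scaled by the trimmed mean of M values. The 3 cre_AA14 libraries were not alike. By the correlation of log2 CPM over the 16403 genes at a mean of 1 CPM or more, cre_AA14 2 was nearer to the ctrl_AA14 libraries, with r between 0.955 and 0.972, than to cre_AA14 1 at 0.917 or cre_AA14 3 at 0.935, whereas cre_AA14 1 and cre_AA14 3 correlated with each other at 0.951. Malat1, a nuclear-retained RNA, was at 1389, 1322 and 1560 CPM in the ctrl_AA14 libraries, 1105 CPM in cre_AA14 2, and only 351 and 382 CPM in cre_AA14 1 and 3. The rank correlation of a gene's deviation from its mean over the 12 libraries with its transcript GC content was −0.289, −0.285 and −0.408 in ctrl_AA14 and −0.385 in cre_AA14 2, against 0.353 and 0.021 in cre_AA14 1 and 3. The part of these library differences in the results below was not tested, and results are therefore given library by library.

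Gpr101 was lowly expressed and its groups overlapped. It was at 3.29, 2.20 and 6.60 CPM in ctrl_AA14 and at 2.57, 2.43 and 0.901 CPM in cre_AA14, so that only cre_AA14 3 lay below every control library. The edgeR quasi-likelihood test gave a log2 fold change of −1.03 (SE 0.89, adjusted p = 0.730), and an exact two-sided permutation test of the log2 values, with 3 against 3 libraries and a smallest possible p of 0.1, gave p = 0.3. Without ctrl_AA14 3, the highest control, the log2 fold change was −0.49. The labels do not say which part of Gpr101 is flanked by loxP sites, and a whole-gene count also takes in reads from outside it. Gpr101 lies on the X chromosome, at chrX:57496668-57503757 of GRCm38, on the minus strand. In bulk libraries, fewer cells of a type and less RNA per cell cannot be told apart, here or for any gene below.

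The 7 hormone genes, which define the endocrine cell types, were all abundant and for none of them was an adjusted p under 0.05 reached with edgeR. Gh, growth hormone, was at 188649, 212868 and 241776 CPM in ctrl_AA14 and at 99557, 217952 and 203818 CPM in cre_AA14, with a log2 fold change of −0.30 (SE 0.32). The low value was cre_AA14 1 alone. Prl, prolactin, was at 37442, 33774 and 56075 CPM in ctrl_AA14 and at 91909, 33625 and 72975 CPM in cre_AA14 (log2 fold change 0.64, SE 0.40). Pomc was at 18360, 13672 and 12712 CPM in ctrl_AA14 and at 40750, 12373 and 25204 CPM in cre_AA14 (log2 fold change 0.81, SE 0.41). For both genes cre_AA14 1 and 3 were above every control and cre_AA14 2 was below every control, and with cre_AA14 2 as the only cre library the log2 fold changes were −0.34 for Prl and −0.27 for Pomc. The thyrotropin beta gene Tshb (log2 fold change −0.41, SE 0.36), the luteinizing hormone beta gene Lhb (−0.01, SE 0.21), the follicle-stimulating hormone beta gene Fshb (−0.27, SE 0.27) and the shared alpha subunit gene Cga (−0.18, SE 0.28) had overlapping groups as well.

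**Figure D1:**
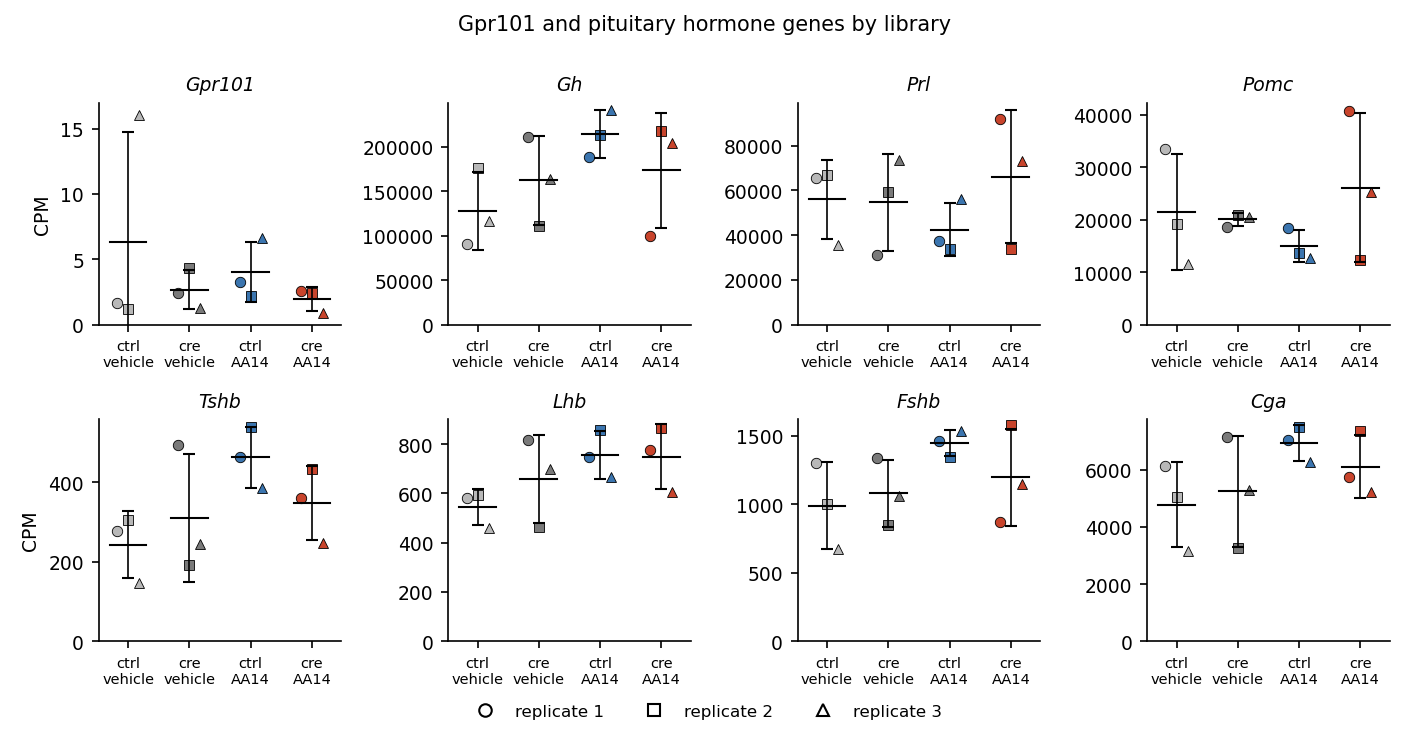
CPM of Gpr101 and the 7 hormone genes in each of the 12 libraries, on linear axes from 0, by group, with marker shape for the replicate number, a horizontal line at the mean and bars of 1 SD (n = 3). In Prl and Pomc the circle and triangle of cre_AA14 lie above every ctrl_AA14 library and the square lies below them.

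Across the 22630 genes, edgeR called 0 at an adjusted p under 0.05 (0% of the genes). At an unadjusted p under 0.05 there were 1927 genes (8.52%), of which 1602 (7.08%) were higher in cre_AA14 and 325 (1.44%) were lower. DESeq2 called 34 of 22325 genes (0.152%), 16 higher and 18 lower. Of these 34, 14 averaged 5 CPM or more over the AA14 libraries, 11 averaged under 1 CPM, and 8 had overlapping groups. Limma-voom with library quality weights called 0 but had 5893 genes at an unadjusted p under 0.05. The count of 1927 depended on single libraries: it was 1279 without ctrl_AA14 1, 724 without ctrl_AA14 3, 619 without cre_AA14 1, 4440 without cre_AA14 2 and 1093 without cre_AA14 3. With cre_AA14 2 as the only cre library it was 393, with 86 higher and 307 lower. The excess of higher over lower genes was likewise absent when each library's GC trend was a term in the fit, with 299 higher and 388 lower. That trend was computed from the same counts and was lower in ctrl_AA14 than in cre_AA14 1 and 3. The term can therefore take up part of the cre contrast itself, and how much was not tested. The median log2 fold change over all genes was −0.01.

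The 2 directions differed in which libraries carried them. Among the 1602 genes on the higher side, cre_AA14 1 exceeded all 3 controls in 1590 and cre_AA14 3 in 1559. For cre_AA14 2 this held in only 751, and the groups did not overlap in 731. Over all 22630 genes tested, cre_AA14 2 exceeded all controls in 5292 (23.4%). Among the 325 on the lower side, cre_AA14 2 lay under all controls in 293, and the groups did not overlap in 280. Over all genes tested, cre_AA14 2 lay under all controls in 5071 (22.4%). Both sets were chosen by p from these same libraries, so a larger share outside the controls follows in part from that choice. Of the 325 lower genes 129 averaged 5 CPM or more over the AA14 libraries, and of the 1602 higher genes 1335. Protein-coding genes made up 66.2% of the lower, 92.1% of the higher and 72.7% of all genes. The higher genes had a median transcript GC content of 54.0%, the lower genes 47.9% and all genes 49.4%. Over all genes tested, the groups did not overlap in 3182 (14.1%), with cre_AA14 higher in 1653 (7.3%) and lower in 1529 (6.76%).

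Ptprd, which encodes a receptor-type protein tyrosine phosphatase and synaptic adhesion molecule, had the smallest p of all genes tested (unadjusted p = 3.6e-05). It lies at chr4:75941238-78211961 on the minus strand. Ptprd was at 81.0, 80.2 and 69.6 CPM in ctrl_AA14 and at 39.3, 39.6 and 44.9 CPM in cre_AA14, so the cre libraries, cre_AA14 2 included, stood together at about the same level. Its log2 fold change was −0.90 (SE 0.14), with an edgeR adjusted p of 0.582, and over the 17 alternatives the adjusted p ranged from 7.18e-06 with DESeq2 to 0.959. In the vehicle groups Ptprd lay between 41.9 and 57.3 CPM in every library, so it was the ctrl_AA14 group that stood apart from the other 9 libraries.

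The remaining 11 lower genes of smallest p, all chosen for separated groups, differed in which group, if any, lay outside all other 9 libraries. Rbm33, an RNA-binding protein gene at chr5:28317121-28419239, was at 78.7, 82.2 and 101 CPM in ctrl_AA14 and at 49.0, 19.3 and 31.5 CPM in cre_AA14 (log2 fold change −1.39, SE 0.30). Wrb, which encodes a subunit of the receptor that inserts tail-anchored proteins into the endoplasmic reticulum, was at 28.1, 25.7 and 8.78 CPM in ctrl_AA14 and at 5.05, 7.58 and 7.28 CPM in cre_AA14 (log2 fold change −1.65, SE 0.38). Zfp672, a zinc finger gene, was at 45.7, 44.9 and 50.9 CPM against 26.8, 28.3 and 28.9 CPM (log2 fold change −0.75, SE 0.16). For these 3 genes the cre_AA14 libraries lay under all other 9. The vehicle libraries lay between 53.6 and 80.0 CPM in Rbm33, 12.6 and 28.2 CPM in Wrb, and 29.5 and 46.7 CPM in Zfp672. In Rbm33 and Zfp672, however, every vehicle library except cre_vehicle 1 also lay under every ctrl_AA14 library. Rbm20, a splicing regulator, was at 55.2, 53.8 and 53.3 CPM in ctrl_AA14 and at 23.6, 35.3 and 27.0 CPM in cre_AA14, and its vehicle libraries lay between 14.97 and 33.7 CPM. Gga3, an adaptor of Golgi vesicle traffic, was at 45.1, 43.7 and 32.3 CPM against 28.0, 27.6 and 26.3 CPM (log2 fold change −0.56, SE 0.16). Lipt1, Nxpe4, Zfp961, Schip1, Tjap1 and Proser3 had log2 fold changes between −0.87 and −0.44, and DESeq2 called none of the 6.

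On the higher side, Senp8 and Dlg2 were the genes of smallest p in which cre_AA14 2 was as high as the other cre libraries. Senp8, a protease that processes the ubiquitin-like protein NEDD8, was at 5.59, 11.7 and 8.67 CPM in ctrl_AA14 and at 19.8, 26.3 and 28.6 CPM in cre_AA14 (log2 fold change 1.53, SE 0.32), and no vehicle library exceeded 16.0 CPM. It lies at chr9:59734259-59750710. Dlg2, a scaffold protein of synaptic membranes, was at 24.0, 25.1 and 25.9 CPM in ctrl_AA14 and at 55.1, 62.8 and 57.3 CPM in cre_AA14 (log2 fold change 1.22, SE 0.27), with vehicle libraries from 24.5 to 62.5 CPM. Both were called by DESeq2 and not by edgeR. Over the 17 alternatives the adjusted p ranged from 0.00735 to 1 for Senp8 and from 0.0381 to 1 for Dlg2.

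In 10 of the 12 higher genes of smallest p it was instead the ctrl_AA14 group that lay under all other 9 libraries. Actr3, the actin-related subunit of the Arp2/3 complex that nucleates branched actin, was at 58.2, 56.1 and 52.1 CPM in ctrl_AA14 and at 131, 84.1 and 111 CPM in cre_AA14 (log2 fold change 0.97, SE 0.18), while the vehicle libraries lay between 79.0 and 125 CPM. Dab2ip, a Ras GTPase-activating protein, was at 24.8, 21.7 and 19.5 CPM against 46.8, 35.5 and 49.8 CPM, with 34.5 to 69.8 CPM under vehicle. Tmem184b, a membrane protein gene, was at 22.5, 25.5 and 16.0 CPM against 120, 54.0 and 99.4 CPM (log2 fold change 2.10, SE 0.44). Zbed3, a Wnt pathway modulator that binds axin, was at 10.2, 9.84 and 8.99 CPM against 43.8, 13.8 and 28.1 CPM, so cre_AA14 2 was above the controls but nearer to them than the other cre libraries. Otulin, a deubiquitinase of linear chains, Slc35g1, Galnt10 and Maml3 had log2 fold changes between 0.82 and 1.37. Pcdhgb6 and Pcdhgc3, with log2 fold changes of 1.93 and 1.89, are members of the clustered gamma protocadherins, whose transcripts share 3′ exons, so their counts are uncertain.

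Among genes with separated groups, those of largest fold change had libraries far apart within a group. Emp1, an epithelial membrane protein gene, was at 8.51, 8.53 and 9.33 CPM in ctrl_AA14 and at 119, 10.7 and 14.1 CPM in cre_AA14 (log2 fold change 2.45, SE 0.86). Reln, which encodes the secreted protein reelin, was at 2.61, 2.22 and 1.94 CPM against 8.24, 2.66 and 22.8 CPM (log2 fold change 2.31, SE 0.90). On the lower side, Ino80d, of the INO80 chromatin remodelling complex, was at 50.5, 51.0 and 65.3 CPM against 34.3, 0.979 and 28.4 CPM, the lowest value being cre_AA14 2. Cacnb4, a calcium channel beta subunit, was at 20.4, 15.03 and 4.74 CPM against 2.62, 3.32 and 3.58 CPM (log2 fold change −2.08, SE 0.92).

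**Figure D2:**
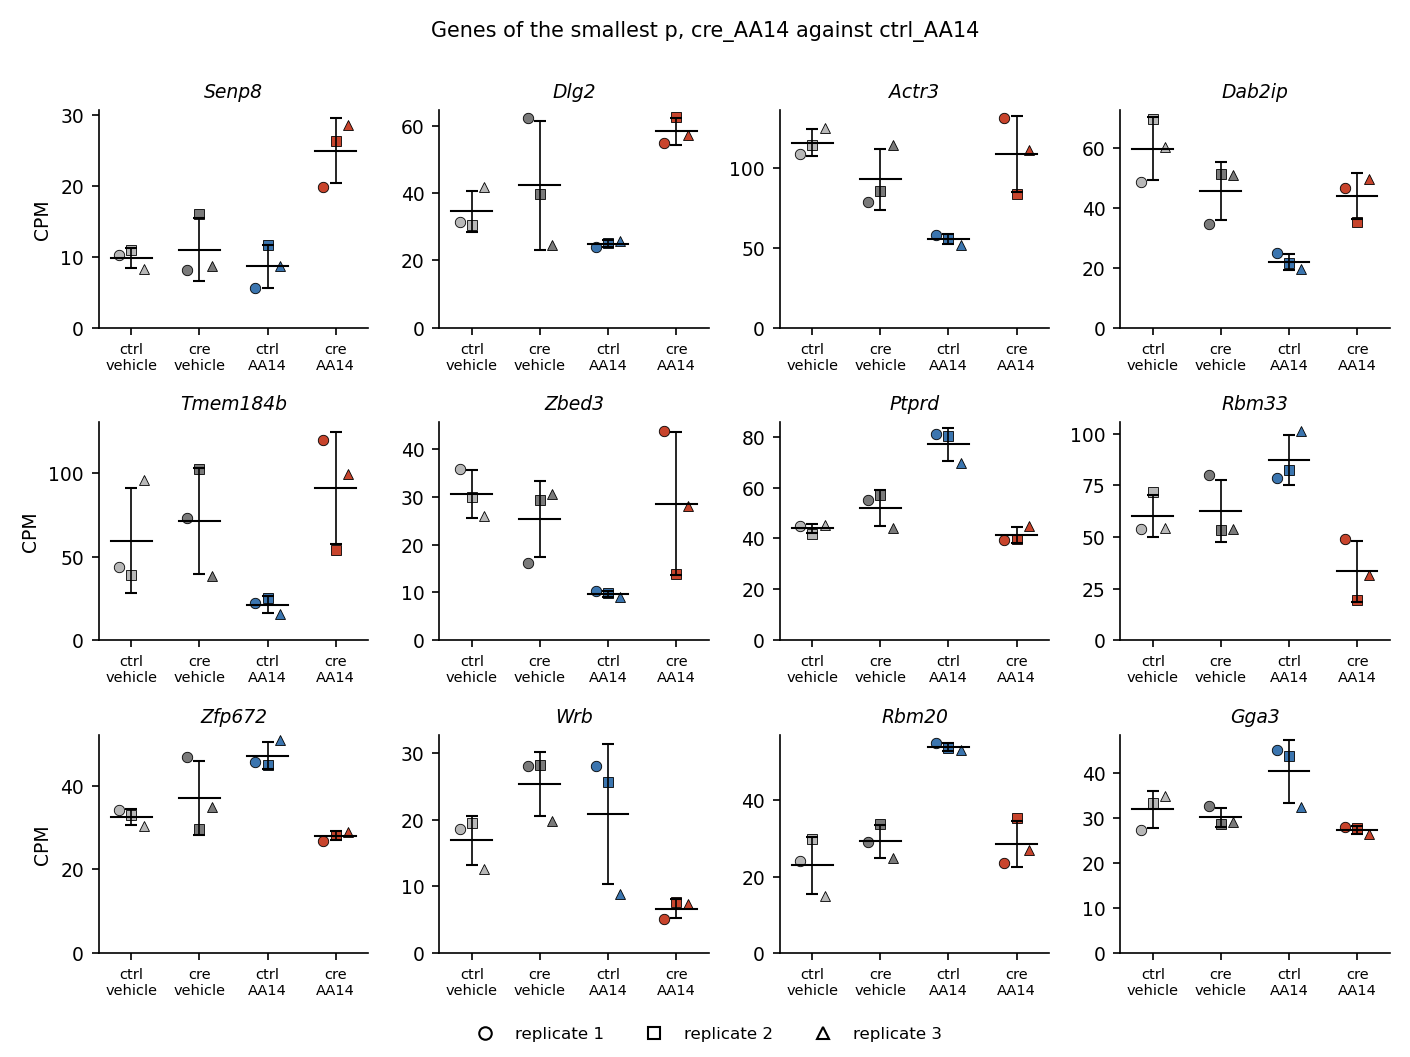
CPM of 12 genes of small p in each of the 12 libraries, on linear axes from 0, by group, with marker shape for the replicate number, a line at the mean and bars of 1 SD (n = 3). Ptprd and Rbm20 are high in ctrl_AA14 alone, Actr3 and Dab2ip are low in ctrl_AA14 alone, and Senp8 is high in cre_AA14 alone.

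The same count was made for all genes tested. The 3 ctrl_AA14 libraries lay above all other 9 libraries for 388 genes (1.71%) and below all of them for 559 (2.47%). The 3 cre_AA14 libraries lay above all others for 47 genes (0.208%) and below for 41 (0.181%). The corresponding counts were 73 and 82 genes for ctrl_vehicle and 31 and 34 for cre_vehicle. The ctrl_AA14 group also held 3 of the 5 libraries of the series with Malat1 over 1000 CPM, the others being cre_AA14 2 and cre_vehicle 1, and the part of that in these counts was not tested.

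The cre contrast under AA14 and the cre contrast under vehicle share no library, and their directions were mostly opposite. Over the 10688 genes at a mean of 10 CPM or more, the log2 fold changes correlated with a Pearson r of −0.331 and a Spearman rho of −0.501, and 30.4% of the genes had the same sign. Over all 22630 genes the Pearson r was −0.12 and the Spearman rho −0.28, with 36.3% of the same sign. These are descriptions across genes, which are not independent replicates. The vehicle libraries were uneven as well. Their rank correlation with transcript GC content was −0.204 in cre_vehicle 1, against 0.253 and 0.289 in cre_vehicle 2 and 3. In ctrl_vehicle it was 0.122, 0.122 and 0.346. The part of single libraries in the opposite directions was not tested. Of the 1602 genes on the higher side under AA14, 1292 had a negative log2 fold change under vehicle. Of the genes at an unadjusted p under 0.05 in both contrasts, 3 were higher in both, 4 were lower in both, 17 were higher under AA14 and lower under vehicle, and 15 were the reverse. Under vehicle alone, 0.932% of all genes were at that p on the higher side and 1.06% on the lower side. The test of the difference between the cre effects called 1 gene (0.00442%), Gm47308, and reached an unadjusted p under 0.05 for 1591 genes (7.03%), 4.86% of all genes with a positive and 2.17% with a negative difference. Gm47308 did not separate the AA14 groups, at 4.15, 5.08 and 4.46 CPM in ctrl_AA14 and 6.61, 4.37 and 6.19 CPM in cre_AA14. Ptprd had a difference between cre effects of −1.14 on the log2 scale (SE 0.19, adjusted p = 0.631) and Actr3 one of 1.29 (SE 0.26, adjusted p = 0.631). Krcc1, the gene of smallest p among the positive differences, was at 16.3 to 19.8 CPM in every AA14 library and at 15.2 to 19.0 CPM in cre_vehicle, against 62.4, 54.0 and 36.6 CPM in ctrl_vehicle.

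**Figure D3:**
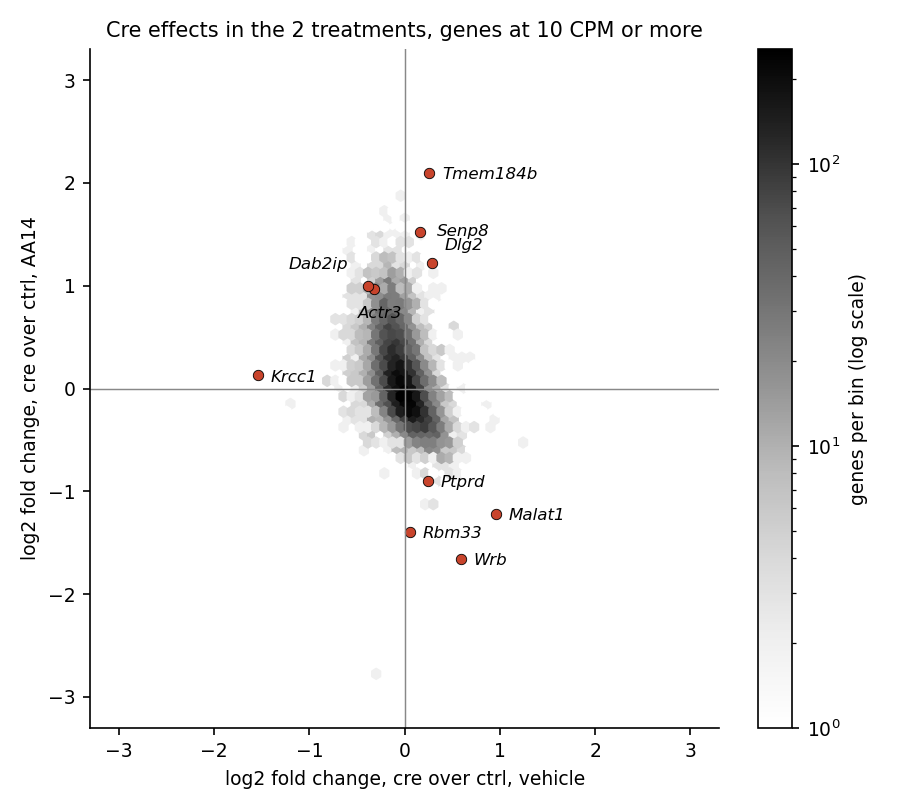
Log2 fold change of cre over control virus under vehicle (x axis) and under AA14 (y axis) for genes at a mean of 10 CPM or more over the 12 libraries, shaded by genes per bin on a log scale and held within 3 on both axes, with named genes in red. The cloud runs from upper left to lower right, with Malat1 at the lower right and Dab2ip and Actr3 at the upper left.

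Lists of genes along the pathway from receptor to target were examined next, and 0 members of any list passed the edgeR test. All 12 G protein alpha subunit genes had a positive log2 fold change, with a median of 0.42, and an unadjusted p under 0.05 was reached by 4 of 12, beside 7.08% of all genes on the higher side. Gnai2, an inhibitory alpha subunit, was at 82.6, 86.9 and 50.8 CPM in ctrl_AA14 and at 322, 71.9 and 223 CPM in cre_AA14 (log2 fold change 1.48, SE 0.50), and Gna11, which couples to phospholipase C, was at 58.8, 56.0 and 39.4 CPM against 121, 55.6 and 92.3 CPM. Gnas, the stimulatory subunit, was at 3088, 3039 and 2556 CPM against 5974, 2728 and 3330 CPM. In each of these 3 genes cre_AA14 2 was inside or below the control range. Prkaca, which encodes a catalytic subunit of the kinase, was at 63.8, 53.3 and 34.5 CPM against 174, 52.8 and 111 CPM (log2 fold change 1.16, SE 0.44). All 9 protein kinase A subunit and inhibitor genes were positive, with a median of 0.30. Prkar1a, Prkar1b and Prkar2a had separated groups, 3 of 9 beside 7.3% of all genes with cre_AA14 higher. In this list cre_AA14 2 was above every control in 3 genes and below every control in 1, beside 23.4% and 22.4% of all genes. Adcy5, an adenylyl cyclase, was at 71.3, 73.8 and 57.6 CPM against 111, 78.5 and 133 CPM, while the 9 adenylyl cyclases had a median of 0.11, with 6 positive. With cre_AA14 2 as the only cre library the medians were 0.05 for the alpha subunits, 0.06 for the protein kinase A genes and −0.29 for the cyclases.

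A list of receptors of pituitary cells was mixed. Of 14 receptor genes, 7 had positive and 7 negative log2 fold changes, with a median of 0.02. Sstr1, an inhibitory somatostatin receptor, was at 6.75, 6.72 and 5.23 CPM in ctrl_AA14 and at 31.7, 4.84 and 43.1 CPM in cre_AA14 (log2 fold change 2.09, SE 0.70), and Drd2, the dopamine receptor of lactotrophs and melanotrophs, was at 111, 112 and 58.9 CPM against 240, 85.8 and 153 CPM. Ghrhr, through which the hypothalamus drives growth hormone release, was at 264, 272 and 309 CPM in ctrl_AA14 and at 147, 241 and 128 CPM in cre_AA14, and Trhr, the thyrotropin-releasing hormone receptor, was at 16.0, 15.6 and 17.9 CPM against 9.54, 13.9 and 13.6 CPM. For Ghrhr and Trhr the groups did not overlap, 2 of 14 beside 6.76% of all genes with cre_AA14 lower. Their log2 fold changes were −0.71 (SE 0.41) and −0.42 (SE 0.21), with unadjusted edgeR p-values of 0.112 and 0.074. The 11 CREB family and coactivator genes had a median of 0.16, the 14 phosphodiesterases 0.16 and the 15 arrestins, receptor kinases and RGS proteins 0.03.

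**Figure D4:**
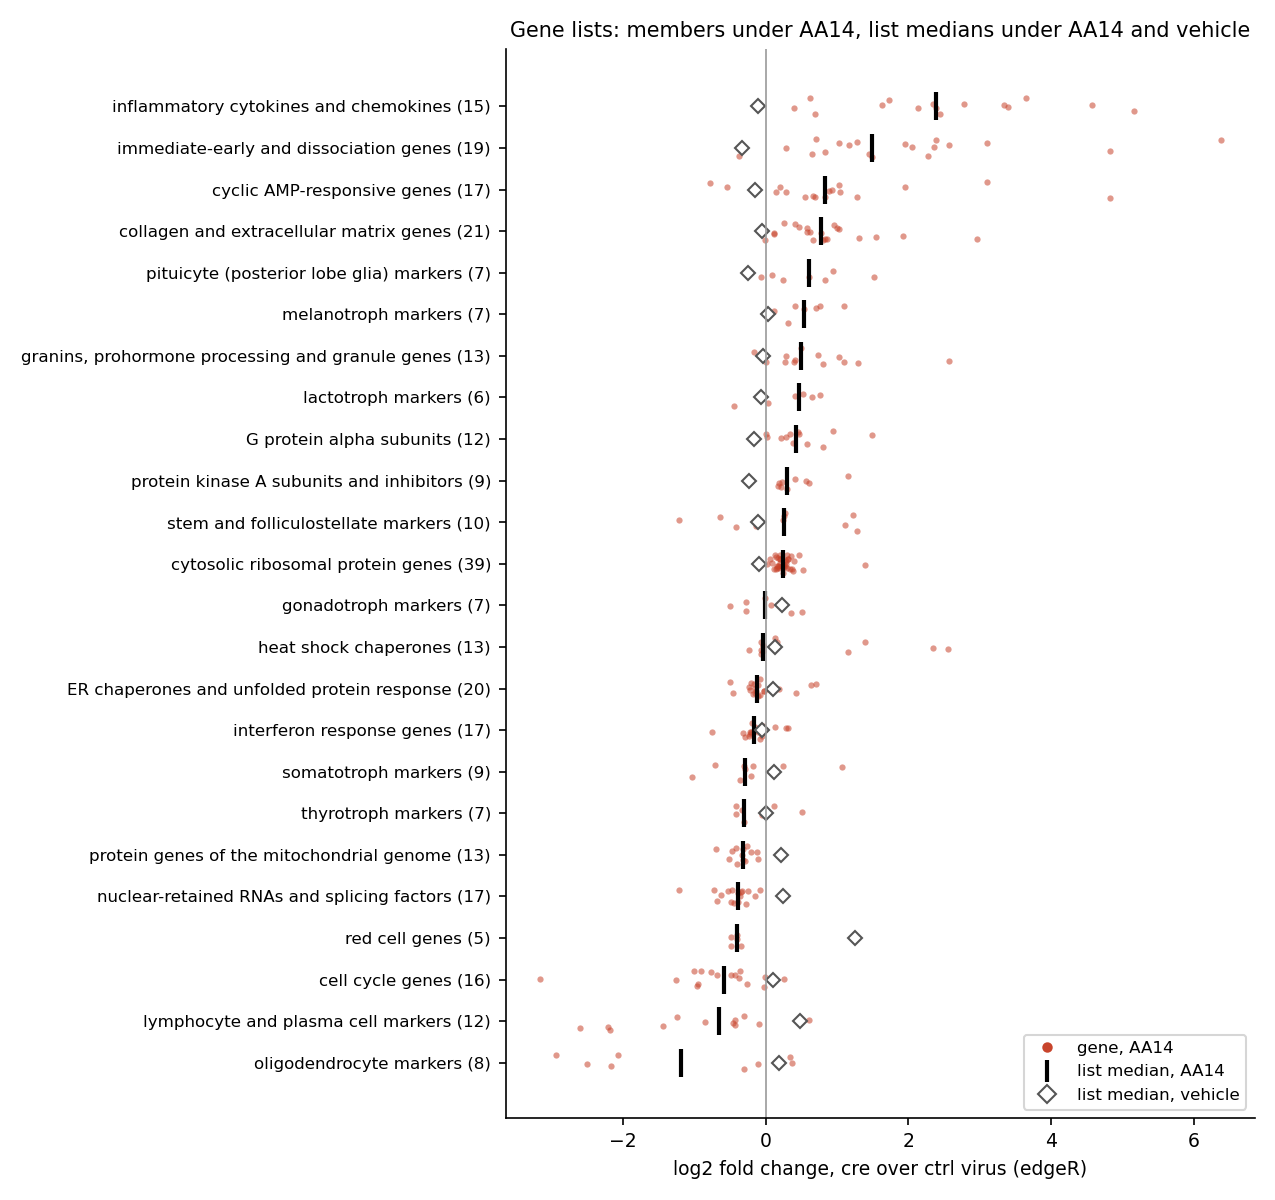
Log2 fold change of cre over control virus under AA14 for the members of 24 gene lists (red points, 1 per gene), with the list median under AA14 (black bar) and under vehicle (open diamond). The number of genes tested stands in parentheses, and the red cell, mitochondrial and nuclear RNA medians lie on opposite sides of 0 in the 2 treatments.

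The downstream cyclic AMP-responsive and immediate-early genes were high in 1 library, cre_AA14 1. The 17 cyclic AMP-responsive genes had a median log2 fold change of 0.83, 15 of them positive, and the 19 immediate-early genes, which cells switch on soon after a stimulus, had a median of 1.49, 18 of them positive. In the latter list 9 of 19 had an unadjusted p under 0.05 on the higher side, beside 7.08% of all genes. The summed level of the immediate-early genes was 7746 CPM in cre_AA14 1, 1070 and 968 CPM in cre_AA14 2 and 3, and 1922, 707 and 1305 CPM in ctrl_AA14. Without cre_AA14 1 the median of the immediate-early list was −0.29 and that of the cyclic AMP-responsive list was −0.29 as well. Fos, a subunit of the AP-1 transcription factor, was at 153, 64.6 and 98.4 CPM in ctrl_AA14 and at 662, 102 and 5.33 CPM in cre_AA14, so the cre group held both the highest and the lowest value. Atf3, a stress-induced factor of the CREB family, was at 3.59, 0.758 and 1.88 CPM against 174, 2.14 and 1.13 CPM, and Nr4a1, an orphan nuclear receptor, was at 338, 44.8 and 372 CPM against 1122, 104 and 305 CPM. Dusp1, a phosphatase that switches off MAP kinases, was at 181, 66.0 and 175 CPM against 606, 117 and 25.3 CPM.

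The promoters of 3 of these genes are shown because they carry the element that CREB binds. Each is the 250 bases before the RefSeq start on the gene's strand (GRCm38.p6), 5′ to 3′, with the core element TGACG, or CGTCA on the other strand, in capitals; where the full element TGACGTCA occurs, the overlapping core elements make 8 capitals in a row.
Fos, chr12:85473640-85473889, plus strand: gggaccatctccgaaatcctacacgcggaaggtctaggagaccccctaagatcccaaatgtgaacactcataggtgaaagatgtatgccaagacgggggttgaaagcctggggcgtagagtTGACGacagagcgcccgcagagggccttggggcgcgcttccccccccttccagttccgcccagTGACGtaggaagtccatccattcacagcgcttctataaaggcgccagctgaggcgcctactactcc
Nr4a1, chr15:101266596-101266845, plus strand: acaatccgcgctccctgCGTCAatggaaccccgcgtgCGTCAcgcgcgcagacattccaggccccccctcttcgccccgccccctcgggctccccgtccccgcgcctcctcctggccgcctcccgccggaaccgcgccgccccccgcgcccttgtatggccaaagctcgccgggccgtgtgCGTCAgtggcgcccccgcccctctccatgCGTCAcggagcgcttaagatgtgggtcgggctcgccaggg
Dusp1, chr17:26508473-26508722, minus strand: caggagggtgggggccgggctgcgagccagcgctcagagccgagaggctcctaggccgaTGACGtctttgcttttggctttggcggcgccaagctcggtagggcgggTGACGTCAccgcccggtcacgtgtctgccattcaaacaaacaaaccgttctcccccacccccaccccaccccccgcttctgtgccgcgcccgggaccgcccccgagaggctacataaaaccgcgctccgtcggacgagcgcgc
The Fos window holds 2 core elements, Nr4a1 4 and Dusp1 3, of which 2 form a full element. Among 32841 RefSeq promoters of 27018 genes, 17.8% held a core element in the same window and 1.55% a full element. RefSeq promoters were found for 15 of the 19 immediate-early genes, and 11 of their 19 windows (57.9%) held a core element and 2 (10.5%) a full element. The core element was in 15.4% of the windows of the inflammatory genes and in 39.4% of those of the ribosomal protein genes. A match describes these letters and not binding.

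The inflammatory genes and a few heat shock genes were high in cre_AA14 1 as well. All 15 inflammatory genes tested had a positive log2 fold change, with a median of 2.39. An unadjusted p under 0.05 was reached by 5 of 15, beside 7.08% of all genes on the higher side, and without cre_AA14 1 the median was −0.33. Ptgs2, the inducible cyclooxygenase, was at 0.545, 0.658 and 0.419 CPM in ctrl_AA14 and at 57.1, 0.326 and 0.751 CPM in cre_AA14, and Lif, a cytokine of the interleukin-6 family, was at 0.463, 0.458 and 0.508 CPM against 33.1, 0.362 and 0.601 CPM. Icam1, a leukocyte adhesion molecule, was the 1 inflammatory gene with separated groups, at 1.58, 1.60 and 1.48 CPM against 18.2, 2.28 and 3.12 CPM. That 1 of 15 is close to the 7.3% of all genes separated in that direction. Hspa1a, the inducible HSP70 chaperone, was at 122, 3.06 and 18.8 CPM in ctrl_AA14 and at 717, 8.05 and 8.33 CPM in cre_AA14, so ctrl_AA14 1 was the next highest of the 6 libraries. The 13 heat shock genes as a list had a median log2 fold change of −0.03, with 6 positive and 7 negative. Those of smallest p were Bag3 (log2 fold change 1.40, SE 0.60), Hspb1 (1.15, SE 0.50) and Hspa1b (2.56, SE 1.66). The 17 interferon response genes had a median of −0.17, 3 positive and 14 negative.

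**Figure D5:**
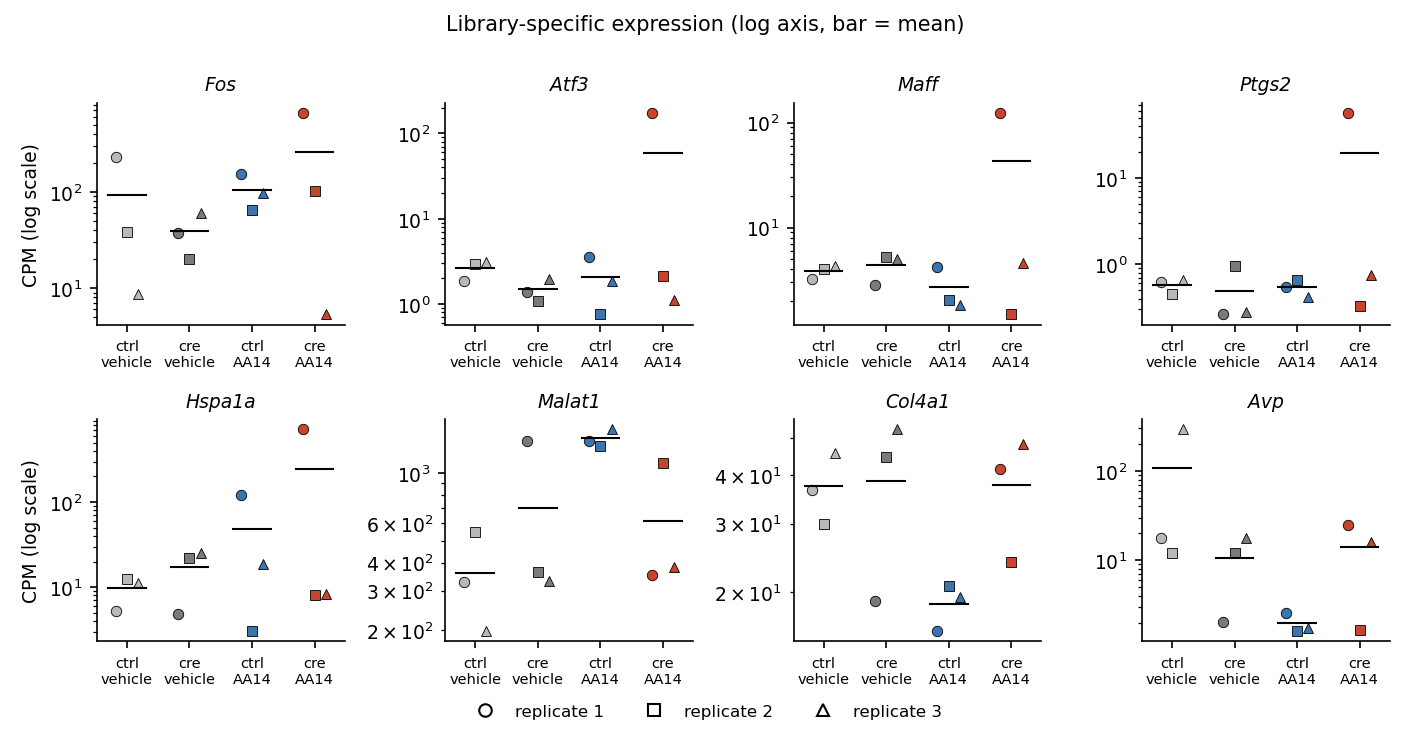
CPM on log axes of 8 genes in each of the 12 libraries, by group, with marker shape for the replicate number and a line at the mean. The circle of cre_AA14 stands far above the rest in Atf3, Maff and Ptgs2, and the square of cre_AA14 lies with ctrl_AA14 in Malat1 and near it in Col4a1.

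In most protein genes of the mitochondrial genome, all 3 cre libraries, cre_AA14 2 included, lay under the controls. All 13 had a negative log2 fold change, with a median of −0.33. The groups did not overlap in 9 of 13, against 6.76% of all genes with cre_AA14 lower, and cre_AA14 2 was under every control in 12 of 13, against 22.4% of all genes. In mt-Nd5, mt-Co1 and mt-Nd4l, however, cre_AA14 3 lay above every control. The summed level of the list was 64705, 60764 and 60423 CPM in ctrl_AA14 and 41700, 53502 and 59501 CPM in cre_AA14. By that sum cre_AA14 3 was close to the controls. mt-Nd1, a subunit of complex I, was at 4946, 4491 and 4413 CPM in ctrl_AA14 and at 2769, 3736 and 3827 CPM in cre_AA14 (log2 fold change −0.42 with an SE of 0.17 and an edgeR adjusted p of 0.582). mt-Atp6, a subunit of ATP synthase, was at 635, 591 and 587 CPM against 499, 480 and 477 CPM (log2 fold change −0.32 with an SE of 0.13 and an edgeR adjusted p of 0.582). mt-Co2, a cytochrome oxidase subunit, was at 3981, 3770 and 3666 CPM against 2697, 3461 and 2954 CPM. The median was −0.20 without cre_AA14 1 and −0.23 with cre_AA14 2 as the only cre library. Under vehicle all 13 were positive, with a median of 0.22, and ctrl_AA14 held the highest mean of the 4 groups for mt-Nd1, mt-Atp6 and mt-Co2. The 30 nuclear-encoded respiratory chain genes had a median of 0.04, with 18 positive and 12 negative.

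Ribosomal protein genes and nuclear-retained RNAs lay on opposite sides. All 39 cytosolic ribosomal protein genes had a positive log2 fold change, with a median of 0.24. Of these 39, 2 had an unadjusted p under 0.05, a share no higher than the 7.08% of all genes on the higher side. Rpl8 was at 466, 460 and 438 CPM in ctrl_AA14 and at 786, 531 and 647 CPM in cre_AA14 (log2 fold change 0.53, SE 0.17), and the summed level of the list was 22794, 21908 and 23052 CPM against 31411, 22408 and 26081 CPM. All 17 nuclear-retained RNAs and splicing factor genes were negative, with a median of −0.39. Neat1, the RNA of the paraspeckle, was at 135, 130 and 132 CPM in ctrl_AA14 and at 65.1, 129 and 61.3 CPM in cre_AA14. For both lists cre_AA14 2 was at the level of the controls, and with it as the only cre library the medians were −0.02 and −0.01.

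In the secretory pathway and the matrix, the list medians were near 0 in cre_AA14 2, although some members were higher in all 3 cre libraries. Of 13 granin, prohormone processing and granule genes, 11 were positive, with a median of 0.49, and 7 of 13 had an unadjusted p under 0.05 on the higher side, beside 7.08% of all genes. Chga, chromogranin A, was at 434, 445 and 346 CPM in ctrl_AA14 and at 1500, 388 and 727 CPM in cre_AA14 (log2 fold change 1.09, SE 0.39). Pcsk1n, an inhibitor of prohormone convertase, was at 400, 441 and 285 CPM against 1562, 346 and 849 CPM. In both, cre_AA14 2 was within the control range. Chgb, Scg5, Cpe and Pam had separated groups, 4 of 13 beside 7.3% of all genes with cre_AA14 higher, and cre_AA14 2 was above every control in 5 of 13, beside 23.4% of all genes. Of 21 collagen and matrix genes, 20 were positive, with a median of 0.78, and 9 of 21 were at an unadjusted p under 0.05 on the higher side, beside the same 7.08%. Col4a1, a basement membrane collagen, was at 15.8, 20.6 and 19.4 CPM against 41.4, 23.8 and 48.1 CPM (log2 fold change 1.02, SE 0.35), and its groups did not overlap. In the matrix list 3 of 21 had separated groups with cre_AA14 higher, beside 7.3% of all genes. There cre_AA14 2 was above every control in 4 of 21 and below every control in 5, beside 23.4% and 22.4% of all genes. With cre_AA14 2 as the only cre library the medians were 0.01 for the secretory list and −0.01 for the matrix list.

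Markers of the cell types were also compared. The 7 melanotroph markers were all positive, with a median of 0.53, which was 0.06 without cre_AA14 1, 0.32 without ctrl_AA14 3 and −0.17 with cre_AA14 2 as the only cre library. Pax7, the factor that sets melanotroph identity, was at 28.0, 25.7 and 13.3 CPM in ctrl_AA14 and at 68.3, 14.7 and 59.7 CPM in cre_AA14. The 9 somatotroph markers had a median of −0.29, with 7 negative, and the 7 gonadotroph and 7 thyrotroph markers, the cells in which the Cga gene is active, had medians of −0.01 and −0.30. The thyrotroph median was −0.06 without ctrl_AA14 2 and −0.07 without cre_AA14 1, and the somatotroph median was −0.06 with cre_AA14 2 as the only cre library. Foxp2, on the gonadotroph list, was at 14.5, 17.3 and 19.8 CPM against 11.7, 13.03 and 11.6 CPM (log2 fold change −0.51, SE 0.16), with separated groups, but the list was split, with 3 positive and 4 negative, and Gata2 (0.51, SE 0.32) and Nr5a1 (0.35, SE 0.21) were positive. The 10 stem and folliculostellate markers had a median of 0.25, with 6 positive and 4 negative, and the median was 0.05 without cre_AA14 3. Among them the stem cell factor Sox2 was at 13.8, 13.2 and 10.2 CPM against 34.995, 10.9 and 41.0 CPM. The 11 neuron and axon transcripts had a median of 0.02, with 6 positive and 5 negative. Avp, vasopressin, carried in axons of the posterior lobe, was at 2.56, 1.62 and 1.73 CPM against 24.6, 1.67 and 16.2 CPM, while Snap25, a synaptic fusion protein, had a log2 fold change of −0.37 (SE 0.29). Of the markers of pituicytes, the glia of the posterior lobe, 6 of 7 were positive, with a summed level of 120 to 161 CPM in ctrl_AA14 and of 202, 125 and 194 CPM in cre_AA14.

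Markers of cells from outside the endocrine pituitary differed between single libraries, as did cell cycle genes, which any dividing cell can express. The 8 oligodendrocyte markers summed to 754, 69.5 and 74.2 CPM in ctrl_AA14 and to 465, 77.4 and 164 CPM in cre_AA14, and their median log2 fold change of −1.18 became 1.61 without ctrl_AA14 1. The 12 lymphocyte and plasma cell markers summed to 65.0, 78.0 and 25.1 CPM in ctrl_AA14 and to 20.0, 40.1 and 27.4 CPM in cre_AA14, with 11 of 12 negative, and Igkc, the kappa light chain, was at 22.6, 27.8 and 2.75 CPM against 0.643, 9.08 and 1.78 CPM. The 5 red cell genes summed to 4401, 6839 and 3995 CPM against 778, 4458 and 6095 CPM. The 16 cell cycle genes had a median of −0.59, with 15 negative. Top2a, the topoisomerase of dividing cells, was at 3.29, 3.39 and 8.24 CPM against 1.76, 1.59 and 4.37 CPM, where ctrl_AA14 3 was the highest library, and without ctrl_AA14 3 the median of the list was −0.23. The part of these cell types and of cell division in the results above was not tested.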

How the data were processed

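The deposited files hold raw counts of reads by gene, as whole numbers. The authors mapped paired reads to the mouse genome with hisat2 2.0.0, per the labels' protocols. The submitters' processing notes name GRCm38, featureCounts 1.5.0-p3 and DESeq 1.8.3 without saying what each was used for. The annotation release and the strand setting of the counting are not stated in the sources used here. Of 55421 gene IDs, 55154 matched GENCODE M21, which gave symbols and positions. Genes were filtered with filterByExpr, libraries scaled by TMM, and 1 mean per group fitted over all 12 libraries with edgeR 4.0.16 (quasi-likelihood test, R 4.3.3), so that the groups share 1 estimate of spread (common biological coefficient of variation 0.445). P-values were adjusted by Benjamini-Hochberg over all 22630 genes, with a threshold of 0.05. Each SE was derived as the size of the log2 fold change over the root of its F statistic, with a median of 0.262 for genes averaging 1 CPM or more. Total counts of the 12 libraries ran from 48693682 to 73388221. Promoter sequences are RefSeq's (GRCm38.p6).

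The genes named are Gpr101, the hormone genes, the 12 genes per direction of smallest p that carry a named symbol, average 5 CPM or more and have separated groups, the separated genes of largest fold change, the list members of smallest p, the genes of smallest p in the difference between the cre effects, and genes that mark 1 library. Fos, Nr4a1, Dusp1, Gnas, Scg5, Cpe, Chgb, Pam, mt-Nd5, mt-Co1 and mt-Nd4l were named after their values were seen. The members and lists were chosen with earlier results of these data known. Alternatives were other size factors, filters, DESeq2 1.42.0, limma-voom (limma 3.58.1), the 6 AA14 libraries alone, a replicate block, libraries left out, and a GC term.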

Additional observations from a re-analysis of the deposited data

Results flagged for a closer look

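The cre effects under AA14 and under vehicle differed by an adjusted edgeR test for 1 gene, Gm47308, a predicted microRNA gene at chr9:64726624-64726730 that lies wholly within other annotated exons, so its counts are uncertain. The difference was −7.04 on the log2 scale (SE 0.41, adjusted p = 4.36e-05). The AA14 libraries had between 241 and 432 counts and the cre_vehicle libraries between 205 and 392, whereas each ctrl_vehicle library had 2. Under vehicle the ratio of cre to control, scaled for library size, was 179 (95% exact interval 81.8 to 488, counting error only).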

How the results depend on the processing

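The number of genes at an adjusted p under 0.05 for the cre effect under AA14 was 0 with edgeR, 34 with DESeq2, 1 with the 6 AA14 libraries only, 2 with cre_AA14 2 alone against ctrl_AA14 (where the lone library is assumed to vary like the other groups), 2 with the GC term, and 0 to 1 when each library was left out. At an unadjusted p under 0.05 it was 1927, and 5893 with limma-voom, 393 with cre_AA14 2 alone, 687 with the GC term, and 619 (without cre_AA14 1) to 4440 (without cre_AA14 2) when each library was left out. For the difference between the cre effects, 1 gene was called by edgeR, 26 by DESeq2, 0 by limma-voom, 2 with cre_AA14 2 alone, 2 with the GC term, and 1 to 2 with each library left out; at an unadjusted p under 0.05 the count was 1591, and 3130 with limma-voom, 466 with cre_AA14 2 alone, 691 with the GC term, and 830 to 4059 with each library left out. The cause was not tested. Deviations of same-numbered cre_AA14 and ctrl_AA14 libraries from their group means correlated at 0.144, 0.002 and −0.077. Those of differently numbered libraries ran from −0.178 to 0.180. With so few libraries these values cannot decide whether the numbers pair the samples. With the replicate block the unadjusted counts were 1283 for the cre effect and 1004 for the difference.

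Gpr101 kept its direction in all 17 alternatives, and its leave-one-out values ran from −1.32 to −0.49. With cre_AA14 2 alone the sign reversed for Gh (0.019), Prl (−0.34), Pomc (−0.27), Lhb (0.19), Fshb (0.12) and Cga (0.080), and with the GC term for Gh (0.032), Lhb (0.14), Fshb (0.082) and Cga (0.13). Lhb ran from −0.12 to 0.12 with libraries left out, reversing without ctrl_AA14 2 (0.09) and without cre_AA14 3 (0.12). The 24 genes of smallest p kept their direction in 408 of 408 values, 13 of which, all with DESeq2, passed the threshold. These genes were chosen for separated groups, so leaving out libraries could hardly reverse their direction. The count of 408 is therefore no measure of how stable they are. Of 799 list medians under the alternatives, 698 moved by less than the spread between libraries and 101 moved by more, 31 of them with cre_AA14 2 alone and 20 with the GC term. With 3 libraries a group, the median SE of 0.262 limits which differences can be detected.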

Other observations

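Of the genes averaging 5 CPM or more, the 3 cre_AA14 libraries lay outside all other 9 libraries for 33, 17 of them higher and 16 lower; these were chosen after their values were seen. Beside the genes of the report they included Mpst, a sulfurtransferase of cysteine catabolism, at 20.5, 24.4 and 22.3 CPM in ctrl_AA14 against 33.8, 30.6 and 33.5 CPM in cre_AA14 (log2 fold change 0.54, edgeR adjusted p = 0.582), with vehicle libraries from 20.3 to 27.7 CPM. Slc2a13, a proton and myo-inositol transporter, was at 70.4, 81.6 and 75.5 CPM in ctrl_AA14 against 93.6, 97.3 and 86.5 CPM in cre_AA14 (log2 fold change 0.29, edgeR adjusted p = 0.582). Pttg1ip, which encodes a partner of securin, was at 39.7, 45.9 and 43.9 CPM against 53.3, 53.9 and 58.6 CPM (log2 fold change 0.36, edgeR adjusted p = 0.582). On the lower side Taf4, a subunit of the general transcription factor TFIID, was at 17.9, 18.4 and 21.2 CPM in ctrl_AA14 against 15.4, 16.2 and 15.01 CPM in cre_AA14 (log2 fold change −0.30, edgeR adjusted p = 0.582).

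The genes that mark libraries were not all limited to 1 library. Lamp5 was at 24.1 CPM in ctrl_AA14 1 and at most 0.326 CPM in the other AA14 libraries, but at 35.9 CPM in cre_vehicle 2. Igha, the heavy chain of immunoglobulin A, was at 26.8, 26.2 and 0.957 CPM in ctrl_AA14 against 0, 10.1 and 0.263 CPM in cre_AA14, and at 32.3 CPM in cre_vehicle 1.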
